A study of Mus musculus with 48 samples.

Results

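The genes described here encode the metabotropic GABA-B receptor and its cytosolic auxiliary proteins: Gabbr1 and Gabbr2 for the receptor subunits, and Kctd8, Kctd12, Kctd12b and Kctd16 for the KCTD partners. They were chosen by gene symbol, and each of the 6 had a row in all 6 deposited tables, which list 24421 symbols each. The tables hold 48 RNA-seq libraries in 15 groups, made from mouse astrocytes, the glial cells that surround synapses and take up transmitter. Cortex, hippocampus and olfactory bulb were each sampled at postnatal day 1 (P1), P7 and P14, with 3 libraries a group and 4 for cortex P14, and the labels give no genotype, strain or treatment for these libraries. At P28 each region has libraries labelled Gabbr1 control and libraries labelled Gabbr1 cKO, a conditional knockout: cortex has 4 of each, hippocampus 2 controls and 4 cKO, and olfactory bulb 3 of each. Tamoxifen is labelled for every P28 library of hippocampus and olfactory bulb, controls included, and for 3 of the 8 of cortex. It is not labelled for the other 5 cortex P28 libraries, which were deposited in an earlier round. The Cre driver, the deleted exons, the sex of the animals and the way astrocytes were separated from other cells are not given in the sources used here. The labels do not say which libraries came from separate animals, nor whether regions came from the same animals, so p-values measure only the spread between these libraries.

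GABA-B receptors are obligate heterodimers on the cell surface. GABBR1 binds GABA, while GABBR2 couples to Gi/o proteins and carries GABBR1 out of the endoplasmic reticulum, so that neither subunit makes a normal receptor alone. The KCTD proteins bind the intracellular tail of GABBR2 as oligomers, hold the G protein beta-gamma dimer near the receptor and set how fast the response rises and fades, with KCTD12 known for fast desensitization. In astrocytes, GABA-B receptors are known for evoking calcium signals.

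The members lie on different chromosomes, given here in GRCm38/mm10 from GENCODE release 21. Gabbr1 spans chr17:37045966-37075067 on the plus strand and Gabbr2 chr4:46662305-46991873 on the minus strand. Kctd12 occupies chr14:102976581-102982637 on the minus strand and Kctd12b, its close relative, chrX:153685154-153696391 on the minus strand. Kctd8 spans chr5:69109285-69341679 on the minus strand. Exons of Kctd12 overlap a long noncoding gene on the opposite strand and a microRNA gene, and Kctd16 overlaps an antisense gene. The counting strand is not given in the sources used here, so reads of such partners cannot be told from those of the members.

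Bases just upstream of the annotated starts are shown for both receptor subunits and for Kctd12, the members whose levels moved most with age and region. They come from the RefSeq promoter table (GRCm38.p6), where 4 of the 6 members had an entry. All are printed 5′ to 3′ on the gene's own strand, and capitals mark matches on either strand to the motifs searched: GGGCGG (a GC box), TGACG (a CRE half-site), TTGGC (an NFI half-site) and ATGCAAAT (the octamer, added after the sequence was seen). The motifs do not overlap one another in these stretches.
Gabbr1, chr17:37045716-37045965: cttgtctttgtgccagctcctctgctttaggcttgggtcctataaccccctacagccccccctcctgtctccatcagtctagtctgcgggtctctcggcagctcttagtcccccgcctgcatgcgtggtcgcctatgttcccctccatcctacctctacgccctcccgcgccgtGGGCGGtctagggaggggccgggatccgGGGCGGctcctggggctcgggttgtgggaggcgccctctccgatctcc
Gabbr2, chr4:46991874-46991964: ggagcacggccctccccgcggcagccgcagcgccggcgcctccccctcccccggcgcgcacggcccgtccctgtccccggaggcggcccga
Kctd12, chr14:102982638-102982887: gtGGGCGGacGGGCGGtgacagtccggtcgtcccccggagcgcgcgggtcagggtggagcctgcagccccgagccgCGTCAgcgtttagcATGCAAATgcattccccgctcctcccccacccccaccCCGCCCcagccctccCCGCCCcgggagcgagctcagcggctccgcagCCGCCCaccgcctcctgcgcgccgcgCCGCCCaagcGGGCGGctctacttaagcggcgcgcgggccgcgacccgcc

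All 3 stretches were rich in G and C. The GC content was 66.0% over 250 bases for Gabbr1, 77.6% over 250 bases for Kctd12 and 85.7% over the 91 bases available for Gabbr2. Medians over all 32851 promoters were 52.4% at 250 bases and 50.5% at 91. For GC and motifs alike, the 91 bases of each promoter are the part of its 250 farthest from the RefSeq start. The Gabbr2 stretch has the same place but ends at its GENCODE start, so the comparison at 91 is of unlike stretches. The Kctd12 stretch held 36 CpG dinucleotides, 7 GC boxes, 1 CRE half-site and 1 octamer. Among all promoters, 32.7% held a GC box in the same 250 bases, 17.8% a CRE half-site and 1.60% an octamer. The Gabbr1 stretch held 16 CpG dinucleotides and 2 GC boxes and no match to the other motifs. The Gabbr2 stretch held 15 CpG dinucleotides and no match to any motif, where 9.42% of all promoters held a GC box in 91 bases and 4.79% a CRE half-site. No stretch held an NFI half-site, which 41.5% of all promoters held at 250 bases and 16.0% at 91, and the octamer was held by 0.539% at 91. These are matches of letters, not measured binding sites.

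Libraries held 1773226 to 15008466 assigned reads, of which the ribosomal gene Rn45s took 13.7% to 38.0%, except in hippocampus P28 cKO replicate 2 (0.594%) and olfactory bulb P28 control replicate 2 (0.476%). The summed level of 11 astrocyte markers, in reads scaled to a library total of 1000000 outside Rn45s (RPM), was 7870 to 10254 at P1 and 133768 to 144743 at P14 in cortex, 6148 to 6795 and 124555 to 132895 in hippocampus, and 2232 to 3243 and 46286 to 50923 in olfactory bulb. Over the same interval the sum of 10 neuron markers went from 2541 to 3635 down to 72.4 to 144 in cortex, from 2593 to 3244 down to 125 to 177 in hippocampus, and from 6403 to 7720 down to 661 to 1083 in olfactory bulb, where it exceeded the astrocyte sum at P1. The sum of 10 microglia markers went from 147 to 222 up to 426 to 894 in cortex, from 44.9 to 71.6 up to 77.7 to 204 in hippocampus, and from 19.5 to 26.8 up to 107 to 173 in olfactory bulb. Between P1 and P14 the sum of 7 oligodendrocyte markers went from 30.6 to 32.4 up to 3667 to 6376 in cortex, from 18.7 to 25.4 up to 285 to 475 in hippocampus, and from 33.8 to 66.4 up to 554 to 624 in olfactory bulb. Olfactory bulb also gained signal of oligodendrocyte precursor markers (55.7 to 71.0, then 399 to 429), endothelial markers (9.76 to 11.5, then 49.4 to 432) and ensheathing cell markers (7.52 to 22.7, then 36.0 to 87.4). Precursor sums rose in hippocampus too (154 to 227, then 259 to 288) and fell in cortex (411 to 439, then 269 to 320). No gene of the astrocyte, neuron and microglia lists was at 0 in all libraries of a P1 or P14 group, and at most 2 of the oligodendrocyte genes were. The part of this changing cell makeup in the results below was not tested, and in bulk libraries fewer cells of a type and less RNA per cell cannot be told apart. Among the P28 libraries, those of cortex deposited later (control replicates 3 and 4 and cKO replicate 4) stood apart, with microglia sums of 591, 390 and 1062 beside 74.0 to 115 in the other 5.

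Values below are the deposited normalized read counts, that is, reads divided by 1 factor per library. Changes are limma estimates on log2(normalized count + 1) within a region, with p-values adjusted over all genes tested by the Benjamini-Hochberg method and called under 0.05. Kctd8 and Kctd16 did not reach the mean of 10 asked of a tested gene in any table, so 4 of the 6 members were tested.

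Gabbr1, the GABA-binding subunit, rose with age in cortex and hippocampus, and its normalized counts in olfactory bulb hardly differed between ages. In cortex the 3 P1 libraries held 1249, 1153 and 1080 normalized reads and the P7 libraries 3023, 2704 and 2752. The P14 libraries held 4518, 4901, 4474 and 5041, so the 3 ages did not overlap. The change from P1 to P7 was 1.28 (SE 0.09, adjusted p = 2.59e-07) and from P7 to P14 was 0.74 (SE 0.08, adjusted p = 9.75e-06), and the P14 mean was 4.08 times the P1 mean. After quantile normalization the second step was 0.26 and still called. In hippocampus Gabbr1 started at 413, 384 and 396 normalized reads at P1 and reached 1572, 1625 and 2181 at P7. The P14 libraries, at 2797, 3224 and 3680, again stood above all younger ones. These are log2 changes of 2.15 (SE 0.15, adjusted p = 1.91e-06) and 0.86 (SE 0.15, adjusted p = 0.00134), with a P14 mean 8.13 times the P1 mean. The second step in hippocampus was 0.24 (adjusted p = 0.183) after quantile normalization, so that call depends on the scaling. In olfactory bulb Gabbr1 held 597, 514 and 490 normalized reads at P1, 553, 505 and 542 at P7, and 588, 444 and 582 at P14. Ranges of the 3 ages overlapped, and the P14 to P1 change was 0.01 (SE 0.15, adjusted p = 0.978), with a ratio of means of 1.01.

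Gabbr2, the subunit that couples to the G protein, rose at both steps in all 3 regions. Cortex libraries held 361, 386 and 428 normalized reads at P1, 1288, 1260 and 1256 at P7, and 1975, 2675, 1943 and 2457 at P14. Each age stood clear of the one before, with changes of 1.70 (SE 0.12, adjusted p = 3.44e-07) and 0.82 (SE 0.11, adjusted p = 6.10e-05), the latter 0.49 and still called after quantile normalization. Hippocampal libraries held 64.5, 83.8 and 92.2 normalized reads at P1, 440, 191 and 404 at P7, and 599, 766 and 606 at P14. Again no age overlapped another, and the changes were 2.02 (SE 0.29, adjusted p = 4.46e-04) and 1.01 (SE 0.29, adjusted p = 0.0209). The call of the second step was lost without P7 replicate 2, the lowest P7 library (0.63, adjusted p = 0.0703), and without P14 replicate 2, the highest P14 library (0.89, adjusted p = 0.0521).

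Olfactory bulb libraries held 12.5, 16.7 and 19.9 normalized reads of Gabbr2 at P1. P7 libraries held 178, 119 and 78.9, and P14 libraries 632, 991 and 641. Every library exceeded every library of the younger age. The log2 change was 2.81 (SE 0.31, adjusted p = 5.73e-04) from P1 to P7, 2.62 (SE 0.31, adjusted p = 7.15e-05) from P7 to P14 and 5.43 (SE 0.31, adjusted p = 2.56e-07) over both, and the P14 mean was 46.1 times the P1 mean, beside 5.78 times in cortex and 8.20 times in hippocampus.

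**Figure D1:**
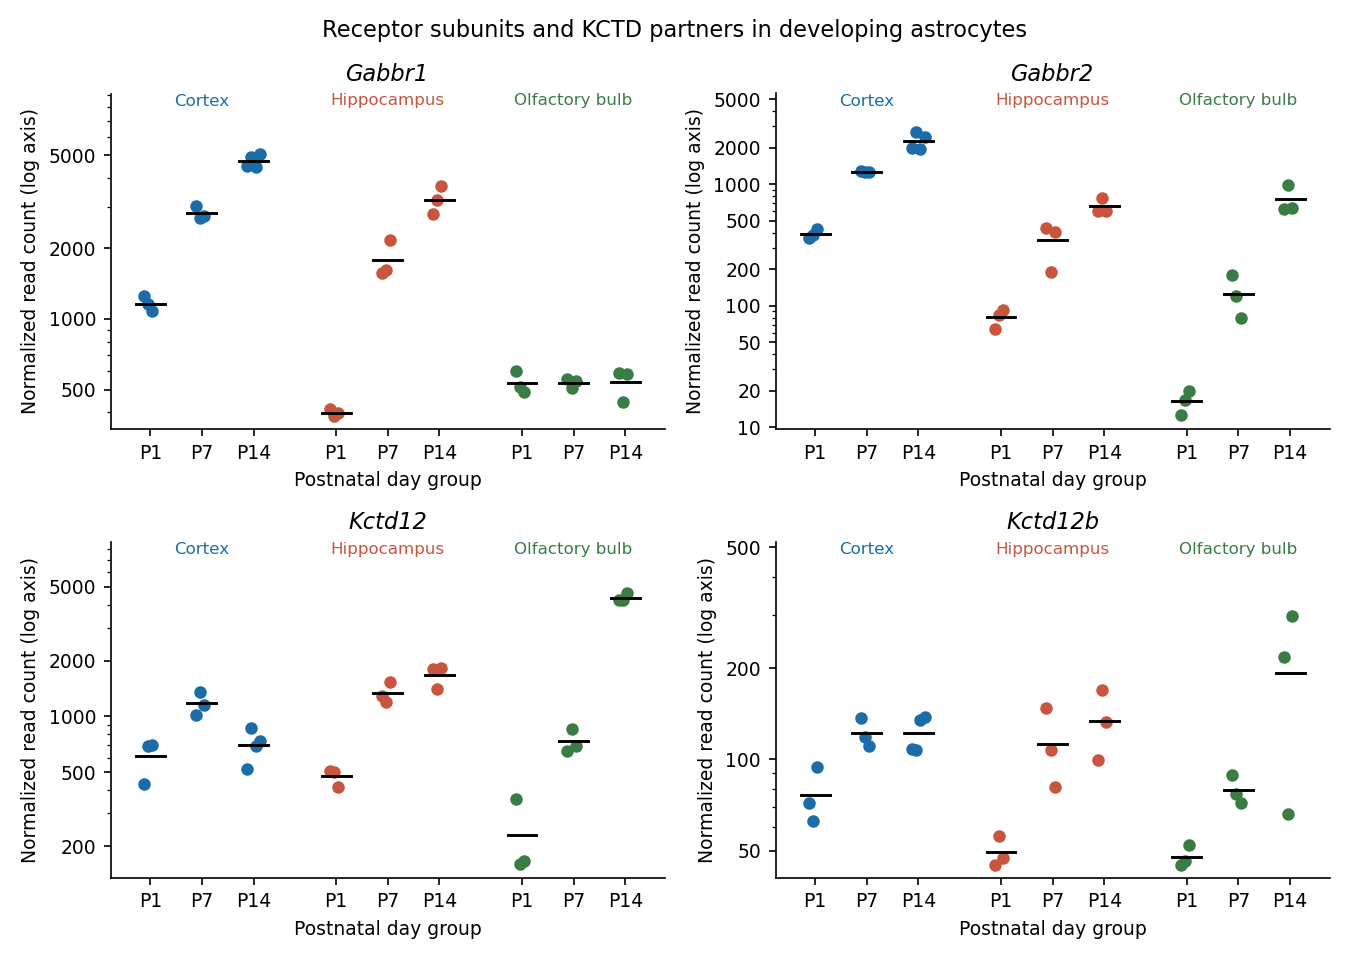
Normalized read count (log axis) of Gabbr1, Gabbr2, Kctd12 and Kctd12b by postnatal age in cortex, hippocampus and olfactory bulb; each point is a library and each line a group mean. Gabbr1 climbed in cortex and hippocampus and stayed between 444 and 597 in olfactory bulb, where Gabbr2 went from 12.5 to 19.9 up to 632 to 991 and Kctd12 from 159 to 360 up to 4243 to 4602; levels are comparable within a region, since each table was scaled on its own.

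Kctd12, the partner linked to fast desensitization, followed a different course in each region. In cortex it was highest at P7: 431, 696 and 702 normalized reads at P1, 1013, 1362 and 1158 at P7, and 522, 863, 690 and 739 at P14. It rose from P1 to P7 by 0.97 (SE 0.20, adjusted p = 0.00213) and fell from P7 to P14 by 0.76 (SE 0.19, adjusted p = 0.00458). P1 and P14 libraries overlapped, with a difference of 0.22 (SE 0.19, adjusted p = 0.325), which passed the test under another scaling, trimmed mean of M values (TMM), at 0.50 (adjusted p = 0.0328).
In hippocampus Kctd12 went from 505, 503 and 415 normalized reads at P1 to 1283, 1192 and 1533 at P7, a rise of 1.49 (SE 0.15, adjusted p = 2.91e-05). P14 libraries held 1797, 1402 and 1818, overlapping those of P7 (0.32, SE 0.15, adjusted p = 0.122).
In olfactory bulb Kctd12 held 360, 159 and 166 normalized reads at P1, 654, 854 and 693 at P7, and 4262, 4243 and 4602 at P14. All libraries of an age stood above those of the younger one, and most of the rise fell between P7 and P14. The changes were 1.78 (SE 0.26, adjusted p = 0.00195) and 2.58 (SE 0.26, adjusted p = 2.62e-05), or 4.36 (SE 0.26, adjusted p = 3.39e-07) over both steps, with a P14 mean 19.1 times the P1 mean. From P1 to P14 the marker sums of microglia and of olfactory ensheathing cells rose as given above. From P7 to P14 the ranges overlapped, at 86.3 to 188 then 107 to 173 RPM for microglia. Those of ensheathing cells were 40.9 to 55.9 then 36.0 to 87.4, and of oligodendrocyte precursors 228 to 487 then 399 to 429. Ranges also overlapped for endothelial markers (40.5 to 52.2 then 49.4 to 432, medians 48.4 and 275). So did those of 5 mural cell markers (92.8 to 114 then 94.1 to 328, medians 108 and 322). The oligodendrocyte sum went from 103 to 126 up to 554 to 624. The neuron sum went from 4108 to 6411 down to 661 to 1083. The astrocyte sum went from 4753 to 8921 up to 46286 to 50923 over that step. The part of these cells in the Kctd12 change was not tested.

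Kctd12b, encoded on the X chromosome, stayed at or below 296 normalized reads in every developmental library and rose in cortex and hippocampus by P7 and in olfactory bulb by P14. Cortex libraries held 71.9, 63.0 and 94.4 normalized reads at P1, 137, 118 and 111 at P7, and 108, 108, 135 and 138 at P14. Libraries of P1 lay below the rest, with rises of 0.68 to P7 (SE 0.18, adjusted p = 0.0112) and 0.68 to P14 (SE 0.17, adjusted p = 0.00324). In hippocampus it went from 44.9, 56.1 and 47.3 normalized reads at P1 to 147, 108 and 81.4 at P7. P14 libraries held 99.96, 170 and 133 normalized reads. The first step was 1.13 (SE 0.29, adjusted p = 0.0191) and both steps together 1.40 (SE 0.29, adjusted p = 0.00208), while P7 and P14 overlapped (0.27, SE 0.29, adjusted p = 0.531). The P7 calls rest on single libraries: leaving 1 out gave 0.55 to 0.84 in cortex and 0.91 to 1.34 in hippocampus. The cortex call was lost without P1 replicate 2 or P7 replicate 1, and the hippocampus call without P1 replicates 1 or 3 or P7 replicates 1 or 2.
In olfactory bulb Kctd12b held 44.8, 46.2 and 52.4 normalized reads at P1, 89.1, 77.2 and 71.8 at P7, and 217, 66.2 and 296 at P14, where replicate 2 lay below all P7 libraries. The P1 to P14 change was 1.74 (SE 0.44, adjusted p = 0.00608), and the step from P7 to P14 missed the threshold at 1.03 (SE 0.44, adjusted p = 0.0778). Without P14 replicate 2 that step was 1.67 and passed. The endothelial marker sums of P14 replicates 1, 2 and 3 were 49.4, 275 and 432 RPM, and their part in the Kctd12b values was not tested.

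Kctd8 and Kctd16 were close to absent from the astrocyte libraries. Kctd8 held 36, 20 and 20 reads in cortex at P1, 16, 3 and 18 at P7 and none in any of the 4 P14 libraries. Against a floor of 3 reads per library, its cortex P14 level was at least 4.92-fold lower than at P1 and at least 4.76-fold lower than at P7. In the other developmental groups it had at most 11 reads a library.
Kctd16 held 16, 36 and 51 reads in cortex at P1 and 18, 1 and 31 at P7. At P14 a single cortex library had 20 reads and the others none, so neither a steady loss nor a steady level can be read at this depth. In hippocampus Kctd16 held 12, 3 and 5 reads at P1, 2, 6 and 3 at P7 and none at P14, and in olfactory bulb at most 8 in any library. Both genes had their highest read counts in cortex at P1, whose libraries were also among the deepest, at 14070691 to 14513455 reads each at P1 beside 7838934 to 15008466 at P14, and had the highest neuron marker sums of that region. With the filter on low values removed, limma called Kctd8 in cortex lower at P14 than P1 (adjusted p = 1.56e-04) and Kctd16 lower in cortex (adjusted p = 0.0289) and hippocampus (adjusted p = 0.00763), from counts this small.

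Counts of called members stand beside a broad background of change, since age altered a large share of all genes. From P1 to P7, 4 of 4 tested members rose in cortex, where 33.7% of genes tested were called and 15.6% were called higher. In hippocampus 4 of 4 rose against 18.1% called and 11.2% called higher, and in olfactory bulb 2 of 4 rose (Gabbr2 and Kctd12) against 10.6% called and 7.59% called higher. From P7 to P14, cortex had 2 members higher (both subunits) and 1 lower (Kctd12), against 18.6% of genes called higher and 31.3% lower (49.8% in all). Hippocampus had 2 higher, both subunits, against 30.1% called and 12.5% called higher, and olfactory bulb 2 higher, Gabbr2 and Kctd12, against 47.0% called and 20.4% called higher. From P1 to P14, the members called higher comprised all but Kctd12 in cortex, all 4 in hippocampus and all but Gabbr1 in olfactory bulb (3, 4 and 3 of 4 tested), where 24.0%, 21.0% and 24.8% of genes tested were called higher and 64.4%, 49.5% and 56.1% were called in either direction. The median log2 change of the tested members was 1.35, 2.41 and 3.05 in those regions, beside medians over all genes tested of -0.27, -0.29 and -0.24. TMM scaling moved the cortex median over all genes to 0.01, and quantile normalization moved the hippocampus median to -0.03. Members passed the filter partly through the ages where they were high, so these counts describe and do not test the set. The share of all genes whose ages did not overlap is not given here. Non-overlap therefore describes the libraries of a member and does not set it apart from other genes. Between ages, 23.9% (olfactory bulb P7 against P1) to 67.7% (cortex P14 against P1) of genes tested had an unadjusted limma p under 0.05.

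Levels per kilobase of exon are set side by side here across genes and regions. They are in RPM per kilobase, and levels across separately scaled tables were not tested. The length is that of all annotated exons of a gene merged (7.764 kb for Gabbr1 and 6.686 kb for Gabbr2). It is not that of the transcripts present in these cells, so comparisons between genes depend on it. Gabbr1 was highest in cortex at P14, at 157 ± 6.55 (SD, n = 4), followed by cortex P7 at 119 ± 8.47, hippocampus P14 at 117 ± 15.1 and hippocampus P7 at 89.0 ± 13.3 (SD, n = 3 each). Cortex P14 did not overlap cortex P7, whereas cortex P7, hippocampus P14 and hippocampus P7 each overlapped the next. Olfactory bulb stood at 29.4, 29.8 and 23.7 for P1, P7 and P14. On this scale its P14 libraries lay below those of P1 without overlap, whereas on normalized counts the ages overlapped. The course of Gabbr1 there thus depends on the scaling. Gabbr2 peaked at 87.1 ± 12.8 (SD, n = 4) in cortex at P14, clear of all other groups, and was lowest at 1.05 ± 0.239 (SD, n = 3) in olfactory bulb at P1, clear of hippocampus P1 at 5.02. At P14 the Gabbr2 levels of olfactory bulb (38.5) and hippocampus (27.5) overlapped.
Kctd12 was highest in olfactory bulb: its P14 group stood at 247 ± 16.6 (SD, n = 3), hippocampus P7 at 85.1 and P14 at 77.3, and cortex at 34.2, 63.4 and 29.9 for P1, P7 and P14. Kctd12b stood between 4.17 and 13.5 in the developmental groups, while the group means of Kctd16 did not exceed 0.869 and those of Kctd8 did not exceed 0.686. Kctd12 made up 77.4% to 95.0% of the per-kilobase sum of Kctd12 and Kctd12b, as group means, at P1 to P14. In P28 controls of cortex, hippocampus and olfactory bulb, Gabbr1 stood at 78.6, 33.8 and 10.8, Gabbr2 at 67.6, 8.33 and 25.3, and Kctd12 at 12.3, 18.04 and 167. The last was 100.1 without replicate 3, a later-numbered library at 302. Each subunit was thus highest in cortex, and Kctd12 in olfactory bulb, where its control and cKO libraries overlapped those of P14.

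**Figure D2:**
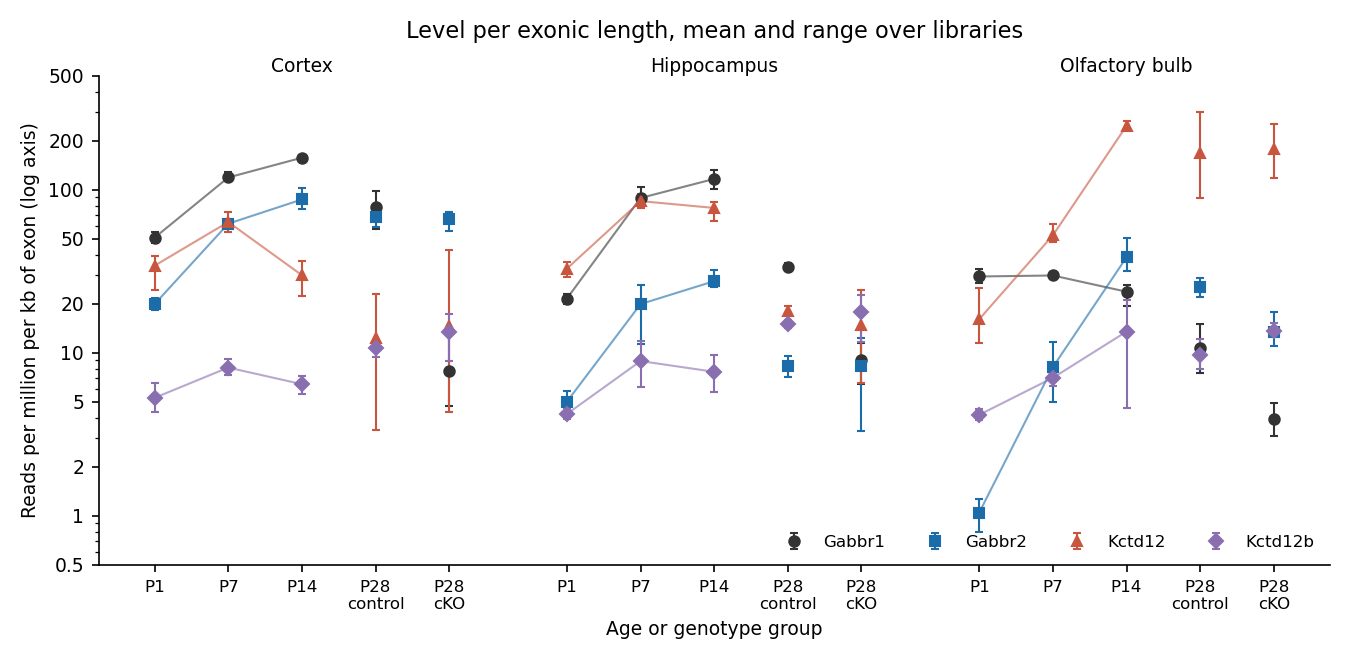
Level of Gabbr1, Gabbr2, Kctd12 and Kctd12b in RPM per kilobase of exon (log axis) for every group; symbols are group means, bars the range over libraries, and lines join the ages of a region. Kctd12 reached 247 in olfactory bulb at P14, where Gabbr2 at 38.5 lay above Gabbr1 at 23.7, while in cortex at P14 Gabbr1 at 157 lay above Gabbr2 at 87.1.

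The balance of the receptor subunit transcripts differed between regions and, in olfactory bulb, between ages. In cortex the Gabbr2 to Gabbr1 ratio per kilobase was 0.335, 0.389 and 0.460 at P1, 0.495, 0.541 and 0.530 at P7, and 0.508, 0.634, 0.504 and 0.566 at P14. Per kilobase, the level of Gabbr1 thus exceeded that of Gabbr2 in every cortex library from P1 to P14. P1 lay below both later ages (log2 difference 0.41 to P7, exact two-sided permutation p = 0.1, and 0.49 to P14, exact p = 0.0571), and P7 and P14 overlapped.
In hippocampus the ratio was 0.181, 0.253 and 0.270 at P1, 0.325, 0.136 and 0.215 at P7, and 0.249, 0.276 and 0.191 at P14. All ages overlapped, with a log2 difference of 0.03 from P1 to P14 (exact permutation p = 0.8).
In olfactory bulb it was 0.0244, 0.0378 and 0.0471 at P1, 0.374, 0.274 and 0.169 at P7, and 1.25, 2.59 and 1.28 at P14. Thus the transcript with the higher level per kilobase was Gabbr1 at P1 and P7 and Gabbr2 at P14, and no 2 ages overlapped. The P14 libraries held 318, 719 and 462 reads of Gabbr2 beside 296, 322 and 419 of Gabbr1. These are transcript levels, not amounts of receptor subunit, and for ratios near 1 the higher transcript depends on the exonic lengths used. The log2 difference of the ratio was 2.87 from P1 to P7, 2.63 from P7 to P14 and 5.49 over both. Each had an exact permutation p of 0.1, the smallest that 3 against 3 libraries allow. Over the 18 comparisons of this ratio the lowest adjusted p was 0.138, so none passed, and with smallest possible p-values of 0.1 and 0.0571 none could.

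Between regions, the ratio was ordered cortex, hippocampus, olfactory bulb at P1, with no overlap between neighbours, and olfactory bulb, cortex, hippocampus at P14. At P14 olfactory bulb exceeded cortex by 1.54 on the log2 scale (exact permutation p = 0.0571) and hippocampus by 2.77 (exact p = 0.1), and hippocampus differed from cortex by -1.22 (exact p = 0.0571). At P7 hippocampus and olfactory bulb overlapped (0.29, exact permutation p = 0.6). The partner Kctd12 per Gabbr2, on the per-kilobase scale, was highest at P1 in each region as a group mean: cortex had 1.71, 1.03 and 0.343 at P1, P7 and P14, hippocampus 6.75, 4.77 and 2.88, and olfactory bulb 17.1, 7.22 and 6.70. The olfactory bulb P1 mean was 9.87 without replicate 1, which stood at 31.7. Kctd12 per Gabbr1 went the other way in olfactory bulb, with means of 0.535, 1.77 and 10.6 at the 3 ages, beside 0.683, 0.538 and 0.190 in cortex.

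**Figure D3:**
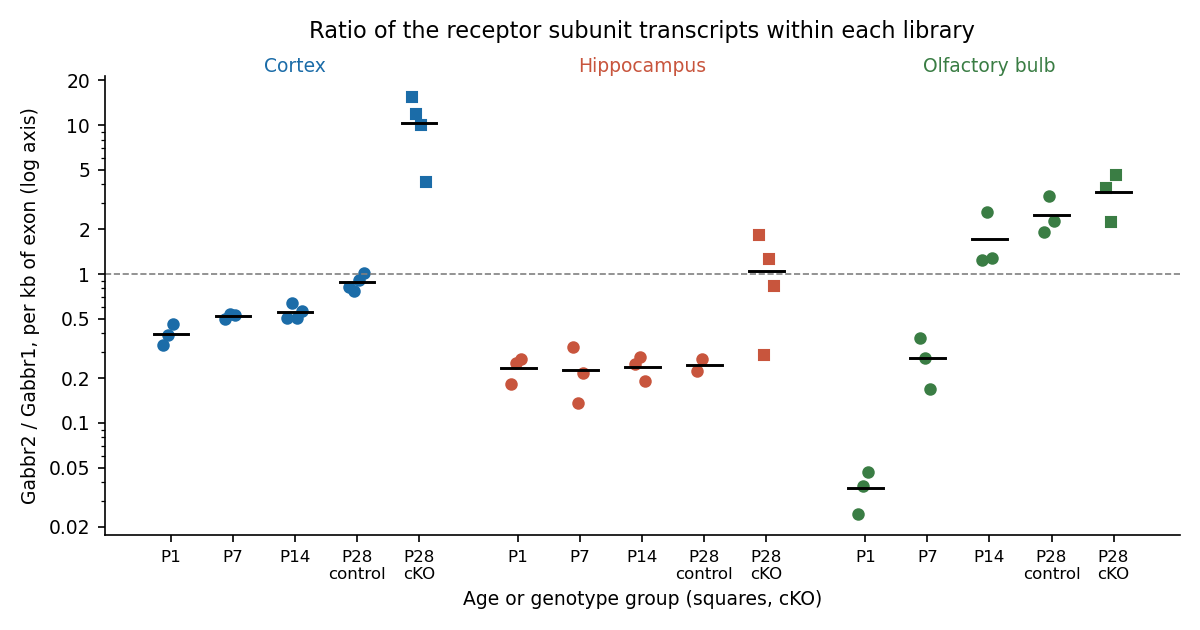
Gabbr2 to Gabbr1 ratio of reads per kilobase (log axis) in each library, by region and group; lines are group means, squares are cKO libraries and the dashed line marks a ratio of 1. Hippocampus stayed between 0.136 and 0.325 from P1 to P14, cortex rose from 0.335 to 0.460 up to 0.504 to 0.634, and olfactory bulb went from 0.0244 to 0.0471 up to 1.25 to 2.59; in the P28 cKO groups the ratio includes the loss of Gabbr1 reads.

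To ask whether the age change itself differed between regions, all developmental libraries were put on 1 scale (recovered reads, TMM, log2 CPM) and the region by age term was tested with limma over 13054 genes. Gabbr1 rose by 2.31 in cortex and 3.08 in hippocampus from P1 to P14 and changed by 0.05 in olfactory bulb on this scale. Hippocampus exceeded cortex by 0.77 (SE 0.17, adjusted p = 0.00374). Olfactory bulb differed from cortex by -2.26 (SE 0.17, adjusted p = 2.91e-10) and from hippocampus by -3.03 (SE 0.18, adjusted p = 6.34e-12). The rise of Gabbr2 was 2.80 in cortex and 3.10 in hippocampus, against 5.52 in olfactory bulb. Its rise in olfactory bulb exceeded that in cortex by 2.72 (SE 0.36, adjusted p = 3.13e-06) and that in hippocampus by 2.42 (SE 0.38, adjusted p = 4.22e-05), while hippocampus against cortex did not pass (0.30, SE 0.36, adjusted p = 0.644). The subunits of 1 receptor thus differed in opposite directions between olfactory bulb and the other regions.
The change of Kctd12 was 0.50 in cortex and 1.88 in hippocampus, against 4.40 in olfactory bulb, and every pair of regions differed: hippocampus over cortex by 1.38 (SE 0.32, adjusted p = 0.00485), olfactory bulb over cortex by 3.91 (SE 0.32, adjusted p = 8.91e-10) and olfactory bulb over hippocampus by 2.53 (SE 0.33, adjusted p = 4.00e-06). For Kctd12b the changes of 0.96, 1.47 and 1.80 were not told apart by the test, with differences of 0.51 (SE 0.47), 0.84 (SE 0.47) and 0.33 (SE 0.48) and adjusted p from 0.220 to 0.693. Without olfactory bulb P14 replicate 2 the olfactory bulb difference was 1.48 from cortex (adjusted p = 0.0022) and 0.97 from hippocampus (adjusted p = 0.0491), so that library decides the call. Of the 4 tested members, 2, 3 and 3 were called for hippocampus against cortex, olfactory bulb against cortex and olfactory bulb against hippocampus, where 11.9%, 21.1% and 17.6% of all genes were called.

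**Figure D4:**
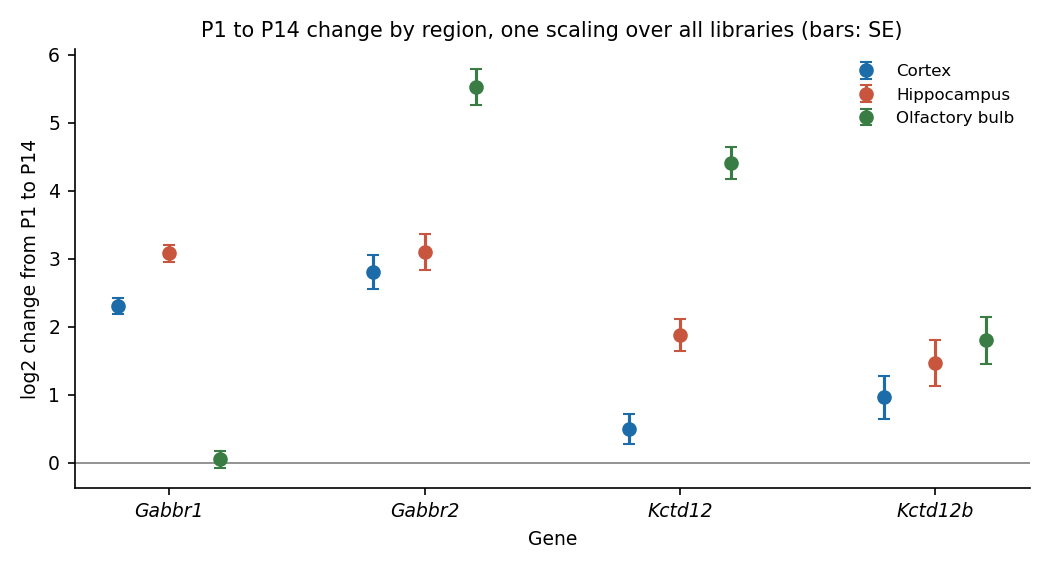
Log2 change from P1 to P14 for Gabbr1, Gabbr2, Kctd12 and Kctd12b in the 3 regions on a common scaling, with bars of 1 SE. Gabbr1 was at 0.05 in olfactory bulb and above 2 elsewhere, whereas Gabbr2 at 5.52 and Kctd12 at 4.40 were highest in olfactory bulb.

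Genes that act with the receptor were followed from P1 to P14 through 5 lists, to be read against the shares of all genes called over these ages: 64.4% in cortex (24.0% higher, 40.3% lower), 49.5% in hippocampus (21.0% and 28.5%) and 56.1% in olfactory bulb (24.8% and 31.4%). Of 12 known receptor partners, binding proteins and regulators, 12 were tested in cortex, with 1 higher and 8 lower, 9 in hippocampus with none higher and 4 lower, and 10 in olfactory bulb with none higher and 4 lower. Ajap1 and Pianp, which bind the sushi domains of the longer GABBR1 isoform, changed by -3.18 (adjusted p = 5.01e-04) and -3.08 (adjusted p = 9.97e-05) in cortex, and Jakmip1, which links the receptor to microtubules, by -3.03 (adjusted p = 7.89e-05). App, another sushi-domain ligand, changed by -1.11 (adjusted p = 1.99e-04) in hippocampus, where Pianp changed by -3.55 (adjusted p = 0.0101) and the receptor kinase Grk5 by -4.30 (adjusted p = 7.58e-04). In olfactory bulb Ajap1 changed by -4.09 (adjusted p = 2.71e-05), Atf4, a transcription factor that binds the receptor's tail, by -1.96 (adjusted p = 1.51e-05) and Grk5 by -0.91 (adjusted p = 0.0236). Median changes of this list were -0.69, -0.68 and -0.23, beside -0.27, -0.29 and -0.24 over all genes. Neuron marker sums fell over the same ages, by the ranges given above, and their part in these falls was not tested.

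The 5 Gi/o alpha genes, which carry the receptor's signal, split in each region: in cortex 1 was called higher and 3 lower, hippocampus had 2 of each, and olfactory bulb had 2 higher and 3 lower. Gnao1 rose by 1.30 in cortex (adjusted p = 3.17e-09) and 1.83 in hippocampus (adjusted p = 9.08e-07), and Gnai2 by 1.08 (adjusted p = 6.16e-05) in hippocampus and 1.24 (adjusted p = 3.47e-05) in olfactory bulb. Gnai1 was called lower in cortex (-0.66), hippocampus (-1.19) and olfactory bulb (-1.57), and Gnaz by -1.42 in cortex and -2.19 in olfactory bulb.
Of the beta and gamma genes, whose products the KCTD proteins hold, cortex had 2 higher and 4 lower of 12 tested, hippocampus 4 higher and 2 lower of 11, and olfactory bulb 4 higher and 3 lower of 11. In cortex this split turned to 6 higher and 2 lower under TMM scaling. Gng2 and Gng3 fell in all 3 regions, with changes of -4.21, -2.81 and -2.40 for Gng2 and -3.49, -2.33 and -3.02 for Gng3 in cortex, hippocampus and olfactory bulb in turn, while Gng12 rose by 2.81 in hippocampus and 3.14 in olfactory bulb, and Gng11 by 1.56 in cortex.

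Effectors of the receptor were called in both directions: cortex had 5 higher and 9 lower of 17 tested, hippocampus 5 higher and 7 lower of 17, and olfactory bulb 6 higher and 4 lower of 18. The presynaptic calcium channel gene Cacna1b changed by -5.01 in cortex (adjusted p = 1.84e-06) and -5.20 in hippocampus (adjusted p = 5.64e-05), and Kcnj6, a potassium channel opened by beta-gamma dimers, by -3.58 in cortex. Of 8 adenylyl cyclase genes, whose enzymes Gi/o proteins and beta-gamma dimers regulate, 2 were called higher and 3 lower in cortex, the same numbers in hippocampus, and 3 higher and none lower in olfactory bulb. Adcy2 rose in cortex (3.35), hippocampus (4.43) and olfactory bulb (4.28), and Adcy8 by 4.37 in hippocampus and 4.95 in olfactory bulb. Itpr2, the inositol trisphosphate receptor of astrocyte calcium stores, rose by 5.44 in olfactory bulb (adjusted p = 1.60e-07). Among 18 other KCTD genes, cortex had 6 higher and 8 lower of 17 tested, hippocampus 5 higher and 3 lower of 17, and olfactory bulb 3 higher and 6 lower of 16. Kctd15 was called lower in each region (-1.84, -2.17 and -2.53), Kctd21 rose by 1.93 in hippocampus and 2.54 in olfactory bulb, and Kctd11 by 2.39 in hippocampus. The cortex list was further headed by Kctd4 at -2.49 and Kctd14 at 1.72, and that of olfactory bulb by Kctd9 at -2.99. No called gene of the 5 lists changed sign under TMM scaling or quantile normalization.

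Likeness to the members was taken as Pearson's r of log2(normalized count + 1) over the libraries of a developmental table, averaged over the 3 tables (10, 9 and 9 libraries), among 10838 genes. Libraries of a table share age, scaling and depth, so these values describe age profiles where a gene changed with age. Gabbr1 was not called between any ages in olfactory bulb. Its r there, such as 0.85 with Fkbp2, describes differences between libraries, not an age profile, and enters its mean r. Gabbr2 was most like Grm3, which encodes a metabotropic glutamate receptor, Slc39a12, a zinc transporter gene, Abhd3, Itpr2 and Mfap3l, each at a mean r of 0.98. Kctd12 was most like Angpt1, which encodes an angiopoietin (0.95), Npas3, a transcription factor gene (0.94), Fam120c (0.94), Ednrb, the endothelin B receptor gene (0.93), and Ncan, which encodes the matrix proteoglycan neurocan (0.93). For Gabbr1 the values were lower, with Fkbp2 at 0.87, Akt2 at 0.84, Aup1 at 0.83, and Cgrrf1 and Car8 at 0.81. Gabbr1 and Gabbr2 had an r of 0.99 over the 10 cortex libraries and 0.96 over the 9 of hippocampus, and -0.08 over the 9 of olfactory bulb. Gabbr2 and Kctd12 had an r of 0.32, 0.93 and 0.95 in the same order, and Gabbr1 and Kctd12 an r of 0.23, 0.98 and 0.10.

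At P28 the targeted gene was lower in every cKO library than in every control library of its region. The share of all genes whose genotypes did not overlap is given below for olfactory bulb and not for cortex and hippocampus. In those 2 regions non-overlap therefore describes the Gabbr1 values and does not set the gene apart from others. Cortex controls held 1746, 1930, 1159 and 927 normalized reads of Gabbr1, and cKO libraries 89.8, 96.5, 134 and 211. The cKO mean was 9.23% of control, with a log2 change of -3.45 (SE 0.29, adjusted p = 4.40e-05, and exact two-sided permutation p = 0.0286). The call was lost when limma was run without a mean-variance trend (-3.45, adjusted p = 0.0699). Gabbr1 was the 1 gene of 10188 called in cortex, which is 0.00982%, and at an unadjusted p under 0.05 limma counted 221 genes.
In hippocampus, controls held 780 and 824 normalized reads of Gabbr1 and cKO libraries 167, 380, 152 and 256, a cKO mean of 29.8% of control. The change of -1.84 (SE 0.39) did not pass (limma adjusted p = 0.936, exact permutation p = 0.133), though it did without cKO replicate 2, the library with little Rn45s (-2.10, adjusted p = 0.0296).
In olfactory bulb, controls held 318, 184 and 189 normalized reads and cKO libraries 63.6, 99.5 and 78.2, or 34.9% of control. The change of -1.48 (SE 0.33) did not pass (limma adjusted p = 0.877, exact permutation p = 0.1, the smallest possible), and DESeq2 called it at -1.53 (adjusted p = 0.0257). Counts cover the whole gene, so reads of exons outside a deleted part are included.

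The loss of Gabbr1 signal was deepest in cortex as a value, but the regions were not told apart over all genes. The genotype change differed from cortex by 1.59 in hippocampus (SE 0.50, unadjusted p = 0.00397) and by 1.98 in olfactory bulb (SE 0.48, unadjusted p = 4.40e-04), with limma adjusted p of 0.999 for both, and olfactory bulb differed from hippocampus by 0.38 (SE 0.53, adjusted p = 0.954). No gene was called for any of these differences by limma or edgeR, with 317, 299 and 408 genes at an unadjusted p under 0.05, in the order hippocampus against cortex, olfactory bulb against cortex and olfactory bulb against hippocampus. Within cortex, the libraries deposited first (2 controls, 3 cKO) differed by -4.11 and those deposited later (2 controls, 1 cKO) by -2.29.

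Gabbr2 was not called in any P28 comparison. Cortex controls held 1236, 1277, 903 and 815 normalized reads and cKO libraries 1202, 985, 1160 and 752, fully overlapping, with a change of -0.04 (SE 0.21, adjusted p = 1.00). Hippocampus controls held 149 and 190 and cKO libraries 263, 93.9, 164 and 185, a change of -0.03 (SE 0.42, adjusted p = 0.993). In olfactory bulb, controls held 526, 526 and 367 normalized reads and cKO libraries 206, 192 and 311. These groups did not overlap, and the cKO mean was 49.98% of control. The change of -1.01 (SE 0.28) had an unadjusted p of 0.00414 and an adjusted p of 0.877 with limma, and an exact permutation p of 0.1, the smallest that 3 against 3 allow. Within the earlier library numbers it was -1.40 (2 against 2) and within the later ones -0.24 (1 against 1). Its difference from the cortex change was -0.96 (SE 0.41, unadjusted p = 0.0292, limma adjusted p = 0.999). In olfactory bulb no gene was called by limma or edgeR and 349 had an unadjusted p under 0.05, in hippocampus none by either tool and 296 by the unadjusted p, so the called share was 0% in both, while DESeq2 called 22 genes in olfactory bulb and 1 in hippocampus. The groups of 4.71% of all genes tested in olfactory bulb did not overlap with cKO lower, and those of 5.30% with cKO higher.

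Kctd12 at P28 differed between libraries deposited first and later, and no genotype change was called. Cortex controls held 50.7, 66.6, 305 and 230 normalized reads and cKO libraries 79.7, 60.8, 86.3 and 522. The 5 libraries deposited first lay at 50.7 to 86.3 and the 3 deposited later at 230 to 522, whichever the genotype, and the 3 later ones also had the high microglia sums given above. The genotype change was -0.03 (SE 0.64, adjusted p = 1.00), and 0.36 and 0.98 within the first and later libraries. In hippocampus Kctd12 held 366 and 303 normalized reads in controls and 283, 169, 250 and 424 in cKO libraries (-0.32, SE 0.37, adjusted p = 0.936). The highest value, cKO replicate 4, was the 1 library with a later number and had a microglia sum of 332 RPM beside 47.3 to 87.2 in the others.
Olfactory bulb controls held 1847, 1690 and 4555 normalized reads of Kctd12 and cKO libraries 2563, 1860 and 4058. The 2 highest were again the later-numbered libraries, 1 of each genotype, and the change was 0.15 (SE 0.39, adjusted p = 0.940). Those libraries had the highest sums of 4 olfactory ensheathing cell markers, 473 and 431 RPM beside 82.8 to 236 in the other 4, and microglia sums of 184 and 157 beside 73.7 to 135. The part of these cells in the Kctd12 values was not tested.

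Kctd12b held 134, 142, 118 and 96.1 normalized reads in cortex controls and 208, 191, 104 and 109 in cKO libraries (0.26, SE 0.28, adjusted p = 1.00). Hippocampus controls held 242 and 208 and cKO libraries 310, 475, 255 and 164 (0.32, SE 0.41, adjusted p = 0.938). In both regions the groups overlapped. Olfactory bulb controls held 162, 141 and 97.5 and cKO libraries 199, 167 and 164, which did not overlap, with a change of 0.43 (SE 0.30, adjusted p = 0.877). Kctd12 made up 46.1% of the per-kilobase sum of Kctd12 and Kctd12b in cortex controls and 41.0% in cKO libraries, as group means. The means were 54.6% and 44.2% for hippocampus, and 92.8% and 92.2% for olfactory bulb. In cortex the libraries deposited first stood at 20.5% to 40.2% and the later ones at 66.0% to 79.4%, whichever the genotype. Hippocampus cKO libraries ran from 22.4% (replicate 2, with little Rn45s) to 67.7% (replicate 4, with a later number). Kctd8 had at most 9 reads and Kctd16 at most 2 in any P28 library. None of the 5 lists of receptor partners, G protein genes, effectors and other KCTD genes had a called gene at P28 in any region. Since limma called no gene but Gabbr1 in cortex and none in the other regions, this tells nothing particular about the lists.

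The balance of the subunit transcripts at P28 carried the loss of Gabbr1. Cortex controls had Gabbr2 to Gabbr1 ratios per kilobase of 0.822, 0.769, 0.905 and 1.02, hippocampus controls 0.222 and 0.268, and olfactory bulb controls 1.92, 3.32 and 2.25. The same order of regions was seen at P14. For cKO libraries the ratio was 15.5, 11.9, 10.03 and 4.14 (cortex), 1.84, 0.287, 1.25 and 0.837 (hippocampus), and 3.77, 2.24 and 4.61 (olfactory bulb). In olfactory bulb alone the cKO and control ranges overlapped, where Gabbr2 was at 49.98% and Gabbr1 at 34.9% of control.

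**Figure D5:**
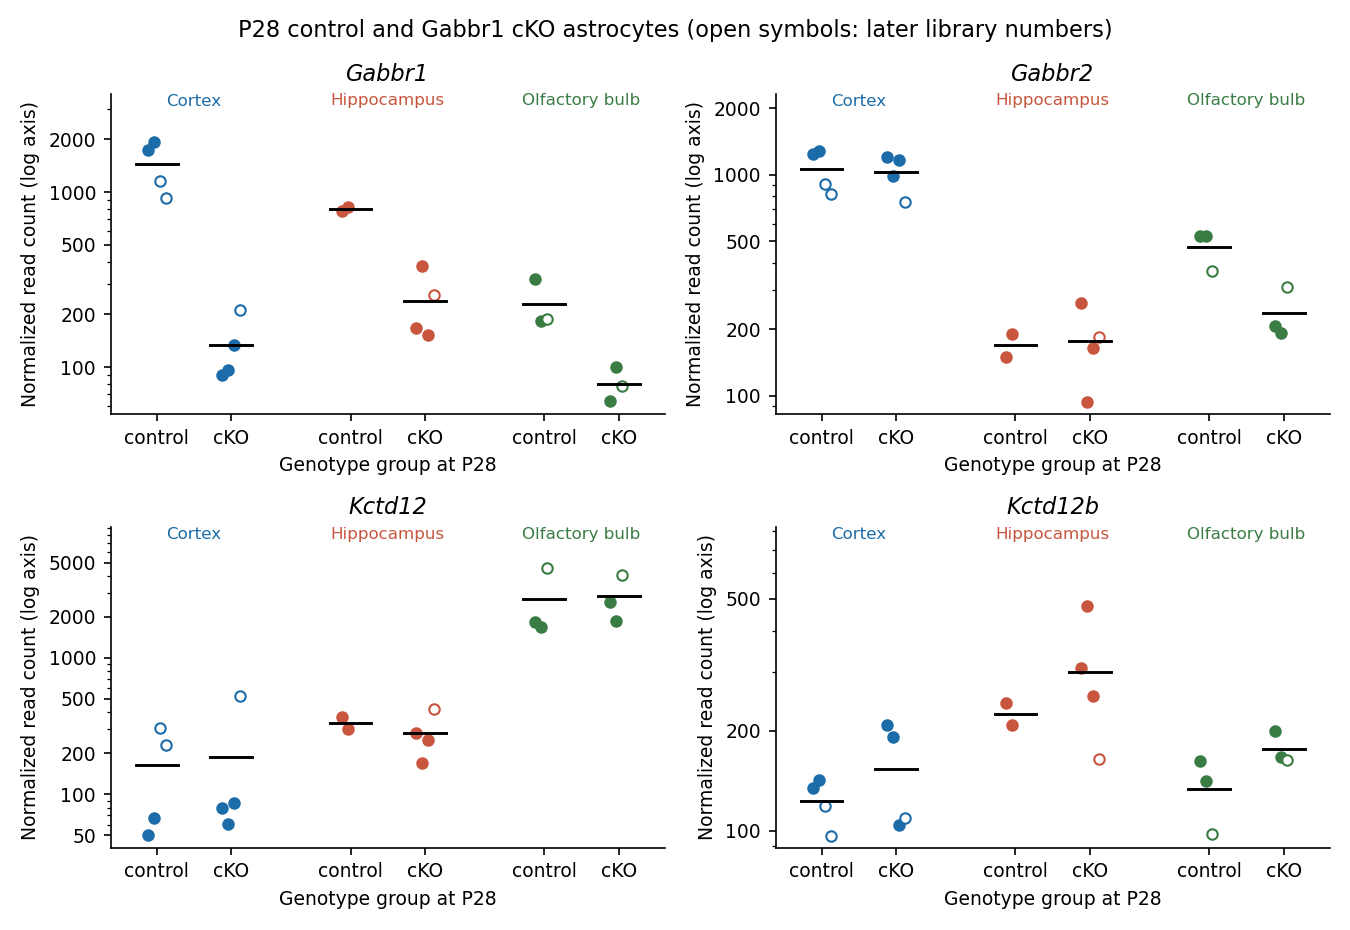
Normalized read count (log axis) of Gabbr1, Gabbr2, Kctd12 and Kctd12b at P28 in control and Gabbr1 cKO libraries of each region; lines are group means and open symbols are libraries with later numbers. Gabbr1 was lower in every cKO library, Gabbr2 was lower without overlap in olfactory bulb, and Kctd12 in cortex separated open symbols at 230 to 522 from closed ones at 50.7 to 86.3.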

How the data were processed

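RNA-seq of mouse astrocytes used a low-input kit with 500 pg to 1 ng of total RNA, per the labels' protocols. The submitters' processing notes name mm10, FastQC, MultiQC, STAR 2.5.0a and DESeq2 1.20.0; annotation, counter and strand are not given in the sources used here. The authors deposited 1 table of normalized signal values for each region and each set of ages or genotypes. Every value was a whole multiple of 1 step per library (100% within 0.01), so reads were recovered (a weak check for replicate 2 of the olfactory bulb P28 cKO group, whose step is near 1). A total of 27 symbols turned into dates in 5 tables were restored, and 23376 of 24421 matched GENCODE release 21.

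Each region's 3 ages, or its P28 genotypes, were fitted with limma 3.58.1 (R 4.3.3, eBayes with trend) on log2(value + 1), for genes with a table mean of at least 10, and genes with a Benjamini-Hochberg adjusted p under 0.05 were called. Fold changes on this scale understate those of low genes. Differences between regions were fitted on recovered reads. Printed ratios are of reads per kilobase with nothing added. The exact two-sided permutation tests and log2 differences of the ratio used the log2 ratio of reads, with 0.5 added to each count and no scaling by length. The exact permutation tests of single genes at P28 used log2(normalized count + 1). Fits were tested on simulated data. Alternatives were pseudocounts of 0.1 and 8, no filter or a mean of at least 100, TMM or quantile scaling, no trend, edgeR 4.0.16, DESeq2 1.42.0, each library left out, the round of deposit as a covariate in cortex and, chosen after seeing the data, library numbers from 157 in the other regions.

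Samples were grouped by the labels for tissue, age and genotype. Replicate numbers follow accession order. No 2 replicates agreed within sampling noise. Members and lists were chosen with earlier results of these data known. Named genes are the members, up to 3 called genes of each list with the largest P14 to P1 change in a region, and the 5 genes most like Gabbr1, Gabbr2 and Kctd12, predicted genes and pseudogenes left out.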

Additional observations from a re-analysis of the deposited data

Results flagged for a closer look

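In groups of 4 libraries, 24 sets of values (each member in each such group) could be checked for a library far from the rest, and 5 had one. For 4 of these, all Kctd16, the other libraries were at 0, so that any read sets the library apart by construction and the rate that chance gives, about 1 in 20, does not apply. Kctd12 stood at 522 normalized reads in cortex P28 cKO replicate 4, the library with the highest microglia marker sum of its group, beside 60.8 to 86.3 in the other cKO libraries. Kctd16 stood at 6.31 in cortex P14 replicate 3 (20 reads), 2.11 in cortex P28 control replicate 1 (2 reads), 0.959 in cortex P28 cKO replicate 4 and 0.770 in hippocampus P28 cKO replicate 4 (1 read each).

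The P1 to P14 change differed between regions, by limma's region by age term, for 3 members. For Gabbr1 the log2 difference was 0.77 for hippocampus minus cortex, -2.26 for olfactory bulb minus cortex and -3.03 for olfactory bulb minus hippocampus. For Gabbr2 it was 2.72 for olfactory bulb minus cortex and 2.42 for olfactory bulb minus hippocampus. For Kctd12 it was 1.38, 3.91 and 2.53 in the order given for Gabbr1. Olfactory bulb libraries at P1 held more neuron marker signal than those of the other regions, and its part in these differences was not tested.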

How the results depend on the processing

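No paired analysis was possible because replicate numbers follow accession order and the labels name no shared animal. Of the values under a changed setting, apart from leaving out a library, 488 kept their direction and side of the threshold. A further 16 changed sign, 5 became called and 4 lost the call. With 1 library left out the counts were 594, 41, 5 and 8. These counts include the 18 comparisons of the subunit ratio, which could not be called under any setting and so could only keep or change sign. Changes of sign were of small, uncalled values. Kctd12b in cortex from P7 to P14 was 0.19 with TMM, 0.14 with quantile normalization, 0.15 with edgeR and 0.17 with DESeq2. Gabbr1 in olfactory bulb was -0.061 (TMM) and -0.013 (edgeR) from P1 to P7, and with quantile normalization -0.19 from P7 to P14 and -0.083 over both. Kctd12 in hippocampus from P7 to P14 was -0.094 with quantile normalization. At P28, Kctd12 in cortex was 0.21 (edgeR), 0.20 (DESeq2) and 0.58 with the round of deposit, Gabbr2 in hippocampus was 0.0025 (quantile), 0.059 (edgeR) and 0.055 (DESeq2), and its hippocampus minus cortex difference was 0.10 (edgeR).

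Calls moved as follows, with adjusted p in parentheses. Kctd12 in cortex from P1 to P14 was called with TMM at 0.50 (0.0328) and DESeq2 at 0.45 (0.0306). Gabbr1 in cortex at P28 was not called without a trend, at -3.45 (0.0699), and in olfactory bulb at P28 was called by DESeq2 at -1.53 (0.0257). From P7 to P14 in hippocampus, quantile normalization gave 0.24 (0.183) for Gabbr1 and 0.75 (0.0657) for Gabbr2, and no trend 1.01 (0.0578) for Gabbr2. Kctd12b in olfactory bulb from P7 to P14 was called by edgeR at 1.37 (0.0149) and DESeq2 at 1.35 (0.00519). The cause of these moves was not tested.

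Leaving out 1 library gave these ranges. In cortex, Kctd12b ran from 0.55 to 0.84 for P1 to P7 and from -0.068 to 0.084 for P7 to P14, and Kctd12 from -0.014 to 0.35 for P1 to P14; at P28 Gabbr2 ran from -0.16 to 0.10 and Kctd12 from -0.73 to 0.40. In hippocampus, Kctd12b ran from 0.91 to 1.34 for P1 to P7, and for P7 to P14 Gabbr2 from 0.63 to 1.23 and Kctd12 from 0.24 to 0.44, called without P14 replicate 2 (adjusted p = 0.0383); at P28 Gabbr1 ran from -2.10 to -1.66 and Gabbr2 from -0.25 to 0.24. In olfactory bulb, Gabbr1 ran from -0.056 to 0.087 for P1 to P7, -0.069 to 0.13 for P7 to P14 and -0.065 to 0.14 over both, Kctd12b from 0.60 to 1.67 for P7 to P14, and Kctd12 at P28 from -0.15 to 0.60. Region differences ran from 0.40 to 1.48 (olfactory bulb minus cortex) and -0.11 to 0.97 (olfactory bulb minus hippocampus) for Kctd12b from P1 to P14, and from -0.22 to 0.28 for Gabbr2 at P28 (hippocampus minus cortex). The log2 Gabbr2 to Gabbr1 ratio in hippocampus ran from -0.44 to 0.19 (P1 to P7), -0.16 to 0.46 (P7 to P14) and -0.15 to 0.18 (P1 to P14), and at P7 from -0.028 to 0.60 (olfactory bulb against hippocampus).

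Counts of called genes moved most for olfactory bulb P7 against P1, at 1214, with 520 to 670 when 1 of 5 libraries was left out, 1580 with edgeR and 2260 with DESeq2; over all alternatives they ran from 2872 to 4489 (cortex P7 against P1), 3295 to 6646 (cortex P14 against P7), 3986 to 9341 (cortex P14 against P1), 1359 to 2835, 2007 to 4806 and 3256 to 7112 (the same steps in hippocampus), and 3007 to 6806 and 3413 to 7585 (olfactory bulb P14 against P7 and P1). On recovered reads edgeR called 7408, 5469 and 6399 genes for P14 against P1 in cortex, hippocampus and olfactory bulb, beside 7608, 5732 and 6449 with limma. Depth limits Kctd8 and Kctd16, with at most 51 reads in a library, and arms of 2 or 3 libraries limit the P28 comparisons.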
